A study of Homo sapiens with 12 samples.

Results

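Mitosis and spindle checkpoint genes were followed as a set of 42 named genes, chosen by symbol for their known roles in entry into mitosis, chromosome capture, the spindle checkpoint, anaphase and cytokinesis. Each gene was read through the probe set of its own with the highest mean over the 12 arrays. A probe set of its own was found for 41 of the 42 genes, among 18239 genes with one, and PTTG1, which encodes securin, the inhibitor of separase, had none and is not described. All 41 passed the filter on low values (a log2 level above 4.20 in at least 3 arrays), as did 13120 genes in all.

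RNA was measured in 3 established human ABC-DLBCL lines (diffuse large B cell lymphoma of the activated B cell-like type), with 1 array for each line under each of 4 treatments. OCI-LY3 counts as replicate 1, OCI-HBL1 as replicate 2 and OCI-LY10 as replicate 3. Control cells carry no further description. CPI203 cells received CPI203 at 500 nM, which blocks the bromodomains through which BET proteins bind acetylated histones. IRAKi cells received 50 µM of an inhibitor of the IRAK kinases, which signal below MYD88, and its chemical identity is not stated. Combo cells received both at these doses. The time label is 6 h for IRAKi and 24 h for the other 3 groups, and the protocol gives 18 h of CPI203 and 6 h of IRAKi, so that label time and treatment cannot be told apart where IRAKi alone is compared. Each group has n = 3, the replicate is the cell line, and p-values cover no more than the spread among these 12 arrays. The lines entered the experiment in exponential growth.

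Array medians lay between 4.64 and 4.73 (log2). All 5 B cell markers with a probe set and all 3 ABC-DLBCL markers (IRF4, BATF and FOXP1) were above 4.20 on all 12 arrays. Of 4 markers each, the myeloid and fibroblast lists had no gene above 4.20 on 3 or more arrays, although LYZ reached 4.81 in OCI-LY10. The T cell list had 2 such genes, with values of up to 4.92, in CD3G, and the epithelial list 3, of which EPCAM read 5.33 to 6.92 in OCI-HBL1 and KRT8 5.93 to 6.82 in OCI-LY10. HEXIM1, whose RNA is known to go up when BET proteins are blocked, had a rise of 1.81 ± 0.20 with CPI203 (log2 change ± SE, limma adjusted p = 0.0014) and of 1.50 ± 0.20 with Combo (adjusted p = 0.00058). Spiked-in poly-A control RNAs were above the Control array of the same line by 0.11 to 0.43 with CPI203, 0.19 to 0.25 with IRAKi and 0.19 to 0.73 with Combo. Scaling each array to these spike-ins lowers every gene's change by the same amount, 0.30 with CPI203, 0.22 with IRAKi and 0.48 with Combo, so rises smaller than that change sign under it. These amounts are means over lines that differ: in OCI-HBL1 the spike-ins read 10.58 in Control, 10.95 with CPI203 and 10.77 with Combo. Why they read higher on treated arrays was not tested. Less endogenous RNA and a different amount of spike-in cannot be told apart here, so spike-in scaling is given as an alternative scale only. Levels and changes below are on the deposited log2 scale unless spike-in scaling is named.

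A cell enters mitosis when cyclin B binds CDK1 and the CDC25 phosphatases remove the phosphates that hold the kinase inactive. Kinetochores then capture spindle microtubules, and the spindle checkpoint (BUB1, BUBR1, BUB3, MAD2 and the kinase MPS1) holds back the anaphase promoting complex until every chromosome is attached. CDC20 activates that complex, which destroys cyclin B and securin, and the central spindle and the contractile ring then divide the cell. RNA of these genes rises from S phase to G2 and M, largely through the MuvB complex with B-MYB and FOXM1, which act at a short promoter element called CHR (cell cycle genes homology region), often with CCAAT boxes bound by NF-Y upstream. In bulk RNA of this kind, a change in the share of cells in a phase and a change in RNA per cell cannot be told apart.

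The promoter letters of the set are shown first, because many of the genes share these letters while their RNA went different ways. The stretches below are the 120 bases before the annotated start of 7 genes with a single start in the RefSeq table (GRCh38.p14), 5′ to 3′ in the direction of the gene. They stand for genes that rose with the combined treatment (CDCA8, ANLN and BUB1), genes that fell (PRC1, BUB1B and SPC25) and PLK1, which did not pass the test. Capitals mark matches to TTTGAA, the letters of the CHR core, or to CCAAT, each on either strand (TTCAAA and ATTGG), and in CDCA8 the last CCAAT match shares a letter with the TTTGAA match.
CDCA8 (chr1:37692396-37692515, plus strand): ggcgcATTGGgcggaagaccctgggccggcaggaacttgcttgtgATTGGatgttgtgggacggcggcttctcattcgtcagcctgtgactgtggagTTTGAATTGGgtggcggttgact
ANLN (chr7:36389742-36389861, plus strand): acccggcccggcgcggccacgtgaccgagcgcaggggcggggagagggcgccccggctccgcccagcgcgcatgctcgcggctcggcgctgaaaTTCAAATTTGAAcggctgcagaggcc
BUB1 (chr2:110678064-110678183, minus strand): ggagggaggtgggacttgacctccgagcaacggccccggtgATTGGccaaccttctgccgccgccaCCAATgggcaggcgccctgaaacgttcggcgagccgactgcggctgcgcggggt
PRC1 (chr15:90994536-90994655, minus strand): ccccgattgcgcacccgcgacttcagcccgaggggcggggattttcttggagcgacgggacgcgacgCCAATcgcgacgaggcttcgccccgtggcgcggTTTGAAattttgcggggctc
BUB1B (chr15:40160949-40161068, plus strand): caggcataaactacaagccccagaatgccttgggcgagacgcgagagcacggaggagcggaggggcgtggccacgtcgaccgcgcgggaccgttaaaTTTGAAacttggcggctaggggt
SPC25 (chr2:168890431-168890550, minus strand): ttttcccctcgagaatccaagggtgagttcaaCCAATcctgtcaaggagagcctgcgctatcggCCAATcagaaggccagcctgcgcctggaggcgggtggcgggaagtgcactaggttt
PLK1 (chr16:23678769-23678888, plus strand): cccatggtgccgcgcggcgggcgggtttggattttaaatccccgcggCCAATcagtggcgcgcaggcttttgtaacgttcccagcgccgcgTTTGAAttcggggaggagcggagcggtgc
In ANLN the capitals are a pair of adjacent CHR matches on opposite strands, 26 and 20 bases before the start. The CHR letters begin 20 bases before the start in PRC1, 23 in CDCA8, 23 in BUB1B and 29 in PLK1. BUB1 has no TTTGAA in its window of 300 bases, and the match of SPC25 lies outside the stretch shown. Over the 36 genes of the set with a window in the table, TTTGAA was found in 26 (72.2%), against 18.2% of all 27305 genes with windows of that length, and CCAAT in 30 (83.3%) against 39.7%. Both were found in 21 genes (58.3%), against 7.26% of all genes.

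Genes that rose and genes that fell both held the letters. Of the 7 genes that rose with Combo on the deposited scale, 6 held TTTGAA, 5 held CCAAT and 4 held both. All 4 of the genes that fell and had a window held TTTGAA, 3 held CCAAT and 3 held both. Among the 24 genes with a window that did not pass the test, 16 held TTTGAA, 21 CCAAT and 14 both. These matches are descriptions of letters and were not tested, and AURKA, BIRC5, BUB3, TPX2, TTK and UBE2C had no window to read.

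The combined treatment moved the set in both directions and at about the rate of all genes. On the deposited scale 7 of the 41 genes rose and 6 fell, which is 31.7% of the set. Over all genes tested 32.1% were called, with 15.4% higher and 16.7% lower. CDC25C, ANLN, BUB1, CDCA8, NUF2, CDK1 and NUSAP1 rose, and SPC25, BUB3, BUB1B, PRC1, UBE2C and ECT2 fell. The median log2 change of the set was -0.09, that of all genes 0.00, and the median size without regard to sign was 0.27 in the set and 0.29 over all genes. Only SPC25 and BUB3 moved by more than 1, whereas 9.84% of all genes did. With spike-in scaling no gene of the set rose and 24 fell (58.5%), where 3.93% of all genes rose and 41.8% fell, and CDK1, BUB1, NUF2, CDCA8 and NUSAP1 had changes below 0. Leaving out OCI-LY3 left 6 genes of the set called, leaving out OCI-HBL1 11 and leaving out OCI-LY10 5. These are 14.6%, 26.8% and 12.2% of the set, against 15.8%, 26.1% and 17.0% of all genes. SPC25, BUB3, BUB1B, PRC1 and CDC25C were called in each of the 3 fits. With the cell line left out as a term SPC25 alone was called, and a fit of the Control and Combo arrays alone called SPC25, BUB3 and CDC25C. These are 2.44% and 7.32% of the set, against 3.54% and 16.5% of all genes.

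**Figure D1:**
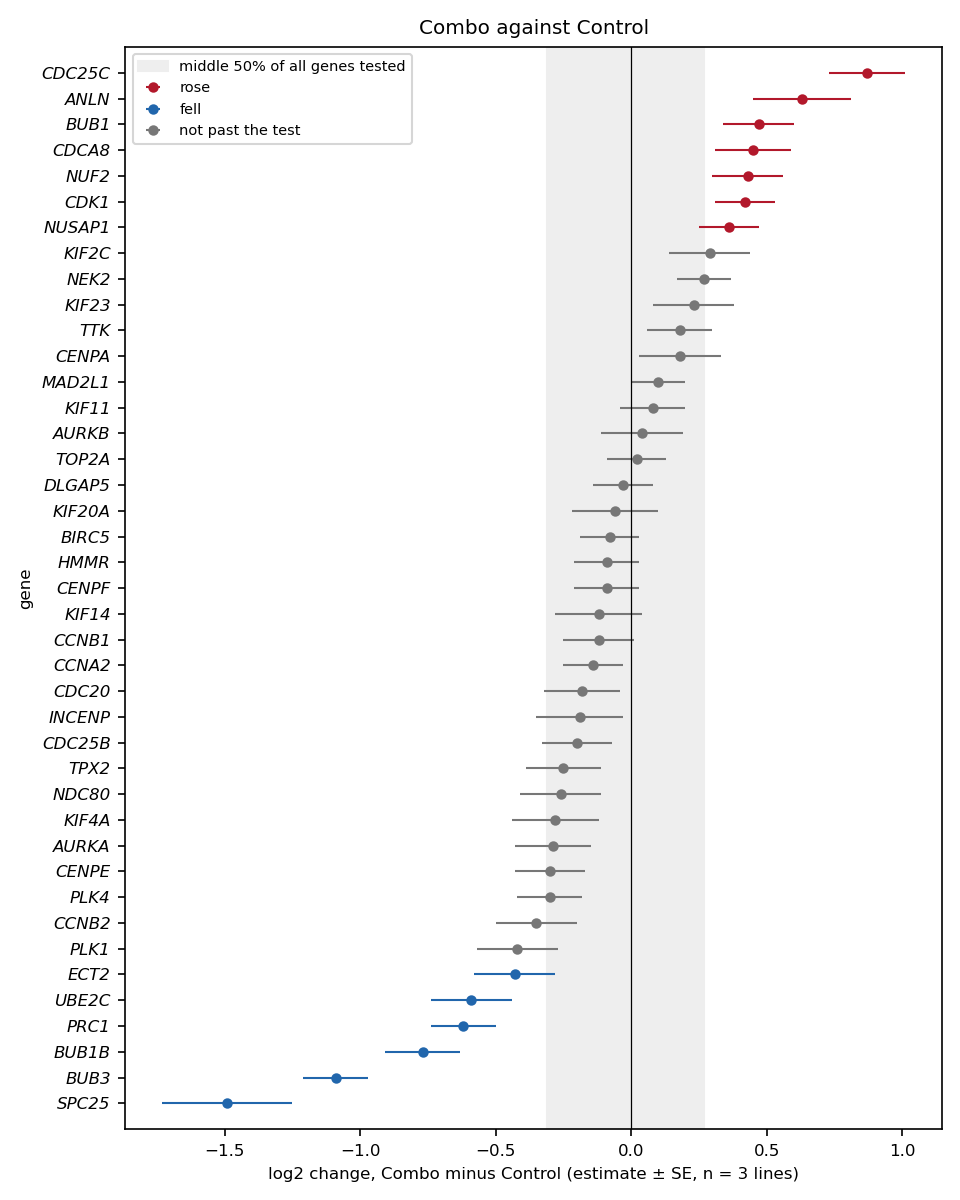
Log2 change with Combo against Control for the 41 genes, in order of the change, with the moderated SE (n = 3 lines), and the grey band holds the middle 50% of all genes tested (-0.31 to 0.27). SPC25 (-1.49) and BUB3 (-1.09) lie farthest to the left and CDC25C (0.87) farthest to the right, and with spike-in scaling all points move left by 0.48, which puts 5 of the 7 red points below 0.

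In the CDK1 and cyclin switch, the kinase and 1 of its phosphatases rose while the cyclins did not pass the test. CDK1, the kinase that drives mitosis, read 10.81, 10.76 and 10.79 in Control for the lines in the order OCI-LY3, OCI-HBL1, OCI-LY10, the order used throughout. It read 10.94, 10.80 and 10.93 with CPI203, 10.83, 10.90 and 10.80 with IRAKi, and 11.38, 11.08 and 11.15 with Combo. Its 3 Combo arrays were the highest of the 12, with no overlap with any other treatment, and treatment held 82.2% of its variation over the arrays, the largest share in the set. The change with Combo was 0.42 ± 0.11 (adjusted p = 0.015), and -0.061 with spike-in scaling.

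CDC25C, a phosphatase that activates CDK1 at mitotic entry, had the largest rise of the set. Its levels were 7.05, 6.76 and 7.46 in Control and 7.48, 6.85 and 7.72 with CPI203. They were 7.44, 7.43 and 8.24 with IRAKi and 8.05, 7.52 and 8.31 with Combo, so that within every line Combo was the highest and Control the lowest. The rise with Combo was 0.87 ± 0.14 (1.83-fold, adjusted p = 0.0013). With spike-in scaling the change was 0.395, short of the threshold (adjusted p = 0.138). The other probe set of the gene had a change of 0.465 (adjusted p = 0.0803).

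CCNB1, the main mitotic cyclin, read 11.11, 11.04 and 11.04 in Control and 10.98, 10.67 and 11.17 with Combo. It was 11.10, 10.93 and 11.35 with CPI203 and 10.84, 10.88 and 10.81 with IRAKi. The Combo arrays lay on both sides of the Control arrays, and the change was -0.12 ± 0.13 (adjusted p = 0.53). CCNB2 and CCNA2, the other cyclins of the set, had changes of -0.35 ± 0.15 (adjusted p = 0.11) and -0.14 ± 0.11 (adjusted p = 0.35). CCNB2 passed the test without OCI-LY3, with a change of -0.597. CDC25B, the phosphatase that starts CDK1 activation at the centrosome, had a change of -0.20 ± 0.13 (adjusted p = 0.28), and its probe sets disagreed, since 1 of the 5 had a change of 0.648 (adjusted p = 0.016).

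None of the 4 centrosome and mitotic entry kinases passed the test with Combo, although 3 lay near the threshold and passed under other settings. PLK1, which promotes entry, spindle assembly and exit, read 7.07, 6.97 and 6.54 in Control and 6.91, 6.18 and 6.23 with Combo. With CPI203 it read 7.17, 6.61 and 6.30, and with IRAKi 7.02, 6.52 and 6.70. It was lower with Combo than with Control in every line, by 0.15 to 0.79, and the change of -0.42 ± 0.15 missed the threshold (adjusted p = 0.062). It passed as lower with the filter at the 60th percentile (adjusted p = 0.0442), the mean of its probe sets (0.0356), spike-in scaling (0.00362) and without the OCI-LY10 IRAKi array (0.0496).

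AURKA, the kinase of centrosome maturation, read 10.89, 9.63 and 8.89 in Control and 10.98, 9.14 and 8.44 with Combo. It was 10.94, 9.16 and 8.81 with CPI203 and 11.00, 9.42 and 8.95 with IRAKi. The lines stood apart far more than the treatments, with 96.9% of the variation between lines, and the Combo change was -0.29 ± 0.14 (adjusted p = 0.15). NEK2, which parts the centrosomes, and PLK4, which controls centriole duplication, had changes of 0.27 ± 0.10 (adjusted p = 0.065) and -0.30 ± 0.12 (adjusted p = 0.074), and both passed with the filter at the 60th percentile (adjusted p = 0.0343 and 0.0456). With spike-in scaling AURKA (-0.762) and PLK4 (-0.779) were called lower.

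The 5 spindle checkpoint genes split, with BUB1 higher, BUB3 and BUB1B lower and MAD2L1 and TTK not past the test. BUB3, the adaptor that brings BUB1 and BUBR1 to kinetochores, read 10.98, 11.71 and 11.11 in Control and 9.95, 10.83 and 9.74 with Combo. With CPI203 it read 10.55, 11.16 and 10.57 and with IRAKi 10.50, 11.08 and 10.52. Each single treatment lay between Control and Combo in each line. The fall with Combo was 1.09 ± 0.12 on the log2 scale, 2.13-fold (adjusted p = 0.00028), and each of its 3 probe sets fell, with changes of -0.666 and -0.875 in the other 2.

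BUB1B encodes BUBR1, a subunit of the complex that inhibits CDC20. It read 10.03, 9.76 and 9.82 in Control and 9.77, 9.14 and 9.31 with CPI203, then 9.98, 9.32 and 9.68 with IRAKi and 9.61, 8.55 and 9.14 with Combo. The Combo values were all below the Control values, and the fall was 0.77 ± 0.14 (1.71-fold, adjusted p = 0.003).

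BUB1, the kinase that marks centromeres for shugoshin and recruits other checkpoint proteins, went the other way. It read 9.26, 9.50 and 8.58 in Control, 9.87, 9.74 and 8.94 with CPI203, 9.54, 9.46 and 8.38 with IRAKi and 10.05, 9.69 and 9.00 with Combo. Combo was above Control in each line, by 0.19 in OCI-HBL1 and by 0.42 and 0.79 in the other two. The rise of 0.47 ± 0.13 (adjusted p = 0.023) was lost without OCI-LY3 or without OCI-LY10, and with spike-in scaling the change was -0.0109. MAD2L1, which encodes MAD2, had a change of 0.10 ± 0.10 (adjusted p = 0.50), and TTK, which encodes the kinase MPS1, had 0.18 ± 0.12 (adjusted p = 0.30).

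**Figure D2:**
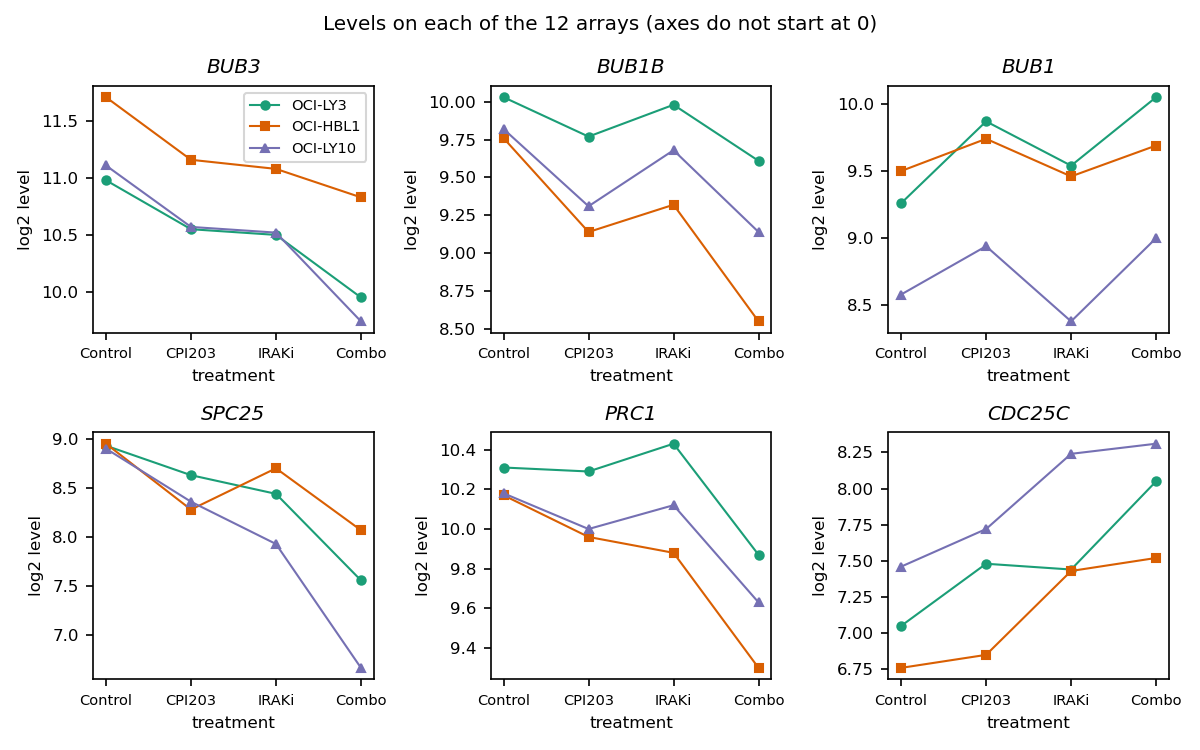
Log2 levels of BUB3, BUB1B, BUB1, SPC25, PRC1 and CDC25C on each of the 12 arrays, by treatment, with a line and marker for each cell line and axes that do not start at 0. BUB3, BUB1B, SPC25 and PRC1 were lower with Combo than with Control in each of the 3 lines, while BUB1 and CDC25C were higher in each on the deposited scale. With spike-in scaling, an alternative scale, the change of BUB1 was -0.0109.

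At the anaphase promoting complex, UBE2C, the ubiquitin-conjugating enzyme that starts chains on its substrates, fell. It read 12.96, 11.89 and 11.59 in Control and 12.26, 11.59 and 10.82 with Combo. With CPI203 it read 12.34, 11.56 and 11.12, and with IRAKi 12.74, 11.87 and 11.87. Within each line the CPI203 and Combo arrays were the lower pair and the Control and IRAKi arrays the higher pair. The fall with Combo was 0.59 ± 0.15 (1.51-fold, adjusted p = 0.013), was lost without OCI-LY3 or without OCI-LY10, and was found in each of its 4 probe sets.

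CDC20, the activator of the complex in early mitosis, read 10.43, 10.65 and 10.74 in Control and 10.12, 10.17 and 10.99 with Combo. It was 10.31, 10.58 and 11.01 with CPI203 and 10.36, 10.43 and 10.85 with IRAKi. OCI-LY10 stood higher with Combo than with Control and the other two lines lower, and the change was -0.18 ± 0.14 (adjusted p = 0.36).

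Among 6 centromere and kinetochore genes, SPC25 fell and NUF2 rose, although both encode subunits of the NDC80 complex that grips microtubules. SPC25 read 8.93, 8.95 and 8.90 in Control, 8.63, 8.28 and 8.36 with CPI203 and 8.44, 8.70 and 7.93 with IRAKi. With Combo it read 7.56, 8.07 and 6.67. The Control arrays were within 0.05 of each other and above every treated array, and the Combo array was the lowest of its line. The fall was 1.49 ± 0.24 (2.81-fold, adjusted p = 0.0016), the largest of the set, and it passed the test under every alternative run.

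NUF2 read 8.19, 7.44 and 7.65 in Control, 8.50, 7.96 and 8.25 with CPI203, 7.98, 7.77 and 7.92 with IRAKi and 8.65, 7.88 and 8.06 with Combo. CPI203 and Combo were above Control in each line. The rise with Combo was 0.43 ± 0.13 (adjusted p = 0.031), was lost without any 1 of the 3 lines, and had a value of -0.0428 with spike-in scaling. NDC80, the third member of the complex in the set, had a change of -0.26 ± 0.15 (adjusted p = 0.23).

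CENPF, a large protein of the outer kinetochore, read 9.95, 9.66 and 10.00 in Control and 10.04, 9.36 and 9.94 with Combo, a change of -0.09 ± 0.12 (adjusted p = 0.61). Its levels were 10.21, 9.52 and 10.31 with CPI203 and 10.11, 9.52 and 10.25 with IRAKi. CENPA, the histone H3 variant that marks centromeres, had a change of 0.18 ± 0.15 (adjusted p = 0.40), and CENPE, the kinetochore kinesin, had -0.30 ± 0.13 (adjusted p = 0.12). The members of this group that did not pass the test thus had estimates of either sign.

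In the chromosomal passenger complex, which corrects faulty attachments, CDCA8 rose and its 3 partners did not pass the test. CDCA8, which encodes borealin, read 8.80, 8.25 and 9.15 in Control and 9.31, 8.37 and 9.87 with Combo, and 9.21, 8.42 and 9.31 with CPI203 and 8.93, 8.39 and 9.24 with IRAKi. All treated arrays were above the Control of their line. The rise of 0.45 ± 0.14 (adjusted p = 0.037) was lost without OCI-LY3 or without OCI-LY10, and with spike-in scaling the value was -0.0295.

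AURKB, the kinase of that complex, read 9.64, 8.36 and 9.30 in Control and 9.45, 8.46 and 9.52 with Combo, a change of 0.04 ± 0.15 (adjusted p = 0.86). It was 9.53, 8.57 and 9.46 with CPI203 and 9.94, 8.24 and 9.37 with IRAKi. BIRC5, which encodes survivin, read 9.41, 9.30 and 9.06 in Control and 9.39, 9.19 and 8.94 with Combo, a change of -0.08 ± 0.11 (adjusted p = 0.64). Its levels were 9.33, 8.99 and 8.78 with CPI203 and 9.77, 9.19 and 9.18 with IRAKi. The treated and Control arrays of both genes overlapped. INCENP, the scaffold, had a change of -0.19 ± 0.16 (adjusted p = 0.40).

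No kinesin motor of the set passed the test with Combo. The estimates of KIF11, KIF14, KIF20A, KIF2C and KIF4A ran from -0.28 for KIF4A, which acts on chromosome arms and the midzone, to 0.29 for KIF2C, which takes microtubules apart at their ends. KIF2C passed the test without OCI-HBL1, with a change of 0.551, and its other probe set had a change of 0.407 over all lines (adjusted p = 0.0463). TOP2A, the topoisomerase that untangles sister chromatids, read 12.06, 11.77 and 11.86 in Control and 12.13, 11.63 and 11.98 with Combo, and 12.04, 11.57 and 11.93 with CPI203 and 12.10, 11.80 and 11.78 with IRAKi. Its change was 0.02 ± 0.11 (adjusted p = 0.93), with the Combo and Control arrays overlapping.

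Of the spindle assembly and midzone genes, NUSAP1 rose and PRC1 fell. PRC1, which bundles microtubules in the central spindle, read 10.31, 10.17 and 10.18 in Control, 10.29, 9.96 and 10.00 with CPI203 and 10.43, 9.88 and 10.12 with IRAKi. With Combo it read 9.87, 9.30 and 9.63, below each of the other 3 arrays of the same line. The fall was 0.62 ± 0.12 (1.54-fold, adjusted p = 0.003). NUSAP1, a protein that stabilises spindle microtubules, rose by 0.36 ± 0.11 (adjusted p = 0.028), a call lost without any 1 of the lines and a value of -0.114 with spike-in scaling. TPX2, the activator of Aurora A, had a change of -0.25 ± 0.14 (adjusted p = 0.21), HMMR -0.09 ± 0.12 (adjusted p = 0.65) and DLGAP5 -0.03 ± 0.11 (adjusted p = 0.88).

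Of the 3 cytokinesis genes, ANLN rose, ECT2 fell and KIF23 did not pass the test. ANLN encodes anillin, the scaffold of the contractile ring. It read 9.41, 7.16 and 9.19 in Control and 9.90, 7.47 and 10.28 with Combo, and 9.45, 7.33 and 9.75 with CPI203 and 9.31, 7.44 and 9.26 with IRAKi. Combo was the highest array of each line. The rise of 0.63 ± 0.18 (1.55-fold, adjusted p = 0.021) was lost without OCI-LY3 or without OCI-LY10, and with spike-in scaling its value was 0.156 and did not pass.

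ECT2, the exchange factor that activates RhoA at the cleavage site, read 8.11, 8.74 and 8.41 in Control and 8.06, 8.11 and 7.80 with Combo. It read 8.22, 8.42 and 8.53 with CPI203 and 8.29, 8.80 and 8.43 with IRAKi. Combo was the lowest array of each line, by 0.05 in OCI-LY3 against its Control. The fall of 0.43 ± 0.15 was just inside the threshold (adjusted p = 0.0498) and was lost without any 1 of the lines. KIF23, the kinesin of centralspindlin, had a change of 0.23 ± 0.15 (adjusted p = 0.28).

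**Figure D3:**
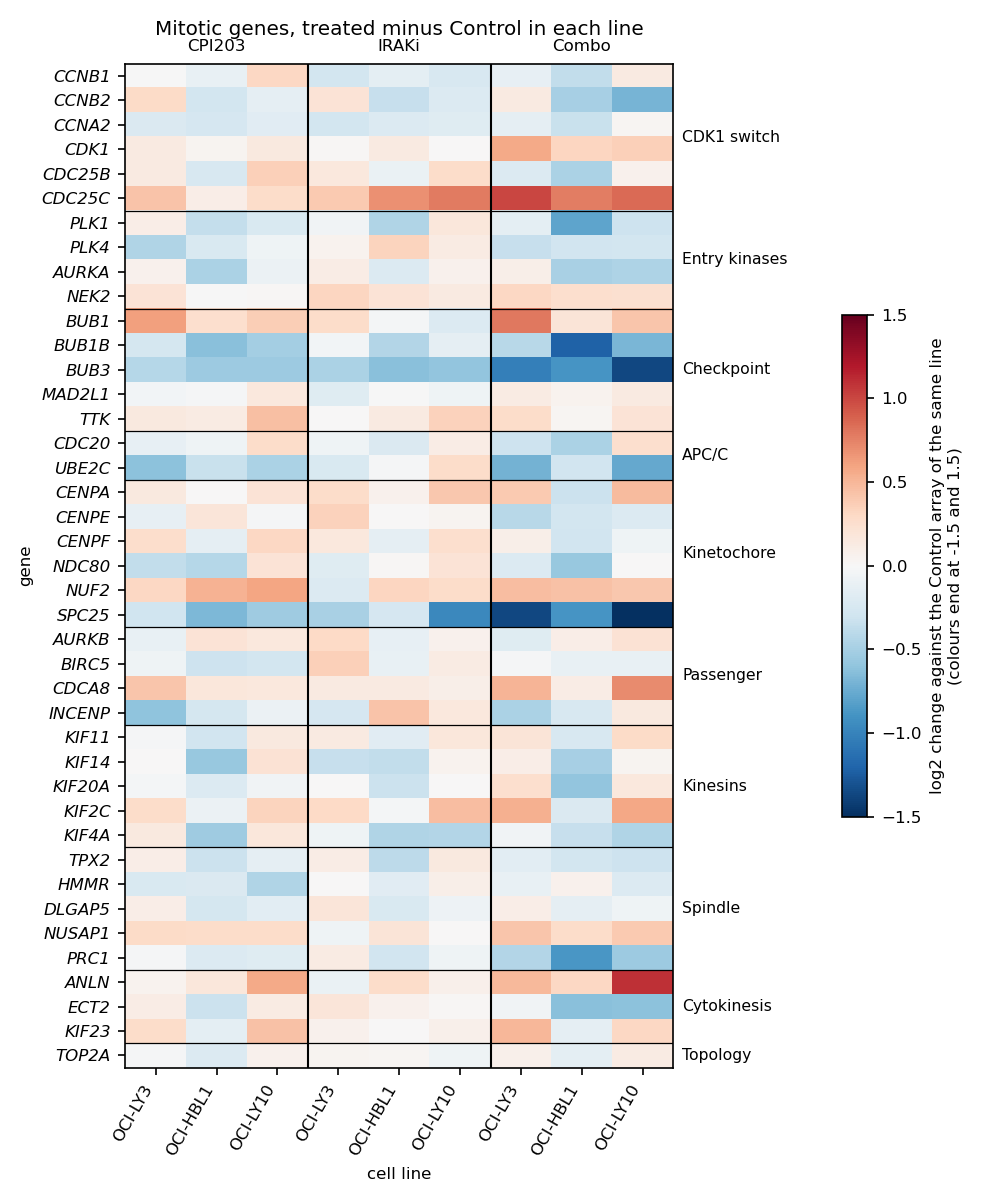
Log2 change of each of the 41 genes (rows, by role) against the Control array of the same line, for CPI203, IRAKi and Combo in each of the 3 lines (columns). SPC25 and BUB3 are blue in all 9 columns and CDC25C red in all 9 on the deposited scale, and 29 of the 41 genes were lower with Combo in OCI-HBL1. In that column 29.3% of the set were higher, against 50.9% of all genes. The 3 changes of a line share 1 Control array, and spike-in scaling would lower the changes of every column.

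Within a line each change rests on 1 array against 1 array and was not tested. With Combo, 10 genes of the set were higher and 13 lower in all 3 lines, 56.1% of the set, against 55.2% of all genes (27.4% higher and 27.8% lower). With CPI203 9 were higher and 11 lower, 48.8% of the set against 52.7% of all genes (27.5% and 25.2%). With IRAKi 9 were higher and 7 lower, 39.0% against 39.1% (20.0% and 19.1%). OCI-HBL1 had the lowest medians of the set, at -0.21, -0.10 and -0.28 for CPI203, IRAKi and Combo, where the median of all genes was 0.01 each time. In OCI-LY3 the medians of the set were 0.05, 0.04 and 0.08, where those of all genes were 0.03, 0.05 and -0.01. In OCI-LY10 the medians of the set were 0.15, 0.08 and 0.07, where those of all genes were 0.00, -0.07 and -0.01. In OCI-HBL1 30, 26 and 29 of the 41 genes were lower than Control for the 3 treatments, and the 3 counts share 1 Control array. The genes higher there were 26.8%, 36.6% and 29.3% of the set, against 50.7%, 52.1% and 50.9% of all genes. In OCI-LY3 51.2%, 61.0% and 51.2% of the set were higher, against 52.8%, 56.4% and 49.2% of all genes. In OCI-LY10 58.5%, 70.7% and 56.1% of the set were higher, against 50.1%, 42.7% and 49.4% of all genes.

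CPI203 alone moved 2 genes of the set past the test. NUF2 rose by 0.47 ± 0.13 (adjusted p = 0.044) and BUB3 fell by 0.51 ± 0.12 (adjusted p = 0.027), which is 4.88% of the set, against 13.1% of all genes tested, with 6.92% higher and 6.21% lower. The filter at the 60th percentile gave 5 genes of the set (12.2%, against 22.7% of all genes) and trended robust variances 7 (17.1% against 17.2%), and the difference between the shares was not tested. UBE2C (-0.47 ± 0.15, adjusted p = 0.064), BUB1B (-0.47 ± 0.14, adjusted p = 0.061) and BUB1 (0.41 ± 0.13, adjusted p = 0.072) lay just outside the threshold. Both calls were lost when any 1 line was left out, and the call of NUF2 also without the filter, with cyclic loess and without the OCI-LY10 IRAKi array. With spike-in scaling BUB3, BUB1B and UBE2C fell and none rose, where 11.7% of all genes fell and 1.26% rose.

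IRAKi alone, compared with Control at another label time, moved no gene of the set past the test, against 0.168% of all genes (0.114% higher and 0.0534% lower). In limma's unadjusted test, 4 of the 41 had p below 0.05, as did 2018 of the 13120 genes. These were BUB3 (-0.57 ± 0.12, adjusted p = 0.10), CDC25C (0.61 ± 0.14, adjusted p = 0.10), SPC25 (-0.57 ± 0.24, adjusted p = 0.30) and NEK2 (0.22 ± 0.10, adjusted p = 0.31). With a trended, robust variance estimate BUB3 passed (adjusted p = 0.0162). BUB3 and SPC25 were lower and CDC25C and NEK2 higher in each of the 3 lines.

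Against CPI203 at the same label time, Combo cells had more CDC25C and less BUB3 and PRC1. CDC25C was higher by 0.61 ± 0.14 (adjusted p = 0.039), BUB3 differed by -0.59 ± 0.12 (adjusted p = 0.033) and PRC1 by -0.48 ± 0.12 (adjusted p = 0.048). These 3 are 7.32% of the set, against 4.66% of all genes (1.96% higher and 2.71% lower). SPC25 had the largest difference, -0.99 ± 0.24, and missed the threshold (adjusted p = 0.051), but was the single gene of the set that passed with spike-in scaling. No gene of the set passed when any 1 line was left out, where at most 0.0229% of all genes did.

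Against IRAKi alone, which differs in label time as well, CDK1 and BUB1 were higher with Combo and 7 genes lower. These 9 genes are 22.0% of the set, against 18.7% of all genes (8.21% higher and 10.5% lower). CDK1 differed by 0.36 ± 0.11 (adjusted p = 0.044) and BUB1 by 0.45 ± 0.13 (adjusted p = 0.041), and neither passed with spike-in scaling, where 8 genes were lower and none higher (14.6% and 2.63% of all genes). The lower genes were SPC25 (-0.92 ± 0.24), UBE2C (-0.60 ± 0.15), BUB1B (-0.56 ± 0.14), PRC1 (-0.54 ± 0.12), BUB3 (-0.53 ± 0.12), ECT2 (-0.51 ± 0.15) and PLK4 (-0.47 ± 0.12). PLK4 read 8.65, 8.45 and 8.20 in Control, 8.21, 8.22 and 8.14 with CPI203, 8.70, 8.78 and 8.31 with IRAKi and 8.30, 8.16 and 7.93 with Combo, so that IRAKi was the highest array in each line. Non-specific control probe sets read 4.0 on the OCI-LY10 IRAKi array and 3.64 to 3.79 on the other 11, and without that array 2 genes of the set passed, PRC1 and PLK4. Without OCI-LY3 none passed, without OCI-HBL1 4 (ANLN, BUB3, SPC25 and UBE2C) and without OCI-LY10 none. Over all genes 4.01%, 13.0% and 5.56% passed in these fits, in that order, and 11.3% without the OCI-LY10 IRAKi array.

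The interaction term (Combo minus CPI203 minus IRAKi plus Control) asks whether Combo departs from the sum of the single log2 changes. It holds the IRAKi arrays, labelled 6 h where the other groups are labelled 24 h, so label time and such a departure cannot be told apart. No gene of the set passed in limma's test, against 0.00762% of all genes, and none passed under the alternatives run. In limma's unadjusted test 3 of the 41 had p below 0.05, as did 1085 of the 13120 genes. The 3 were PRC1 (-0.40 ± 0.16), CENPE (-0.44 ± 0.19) and ECT2 (-0.48 ± 0.21), with adjusted p of 0.56, 0.59 and 0.59. For BUB3 the single changes were -0.51 and -0.57 and that of Combo -1.09.

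**Figure D4:**
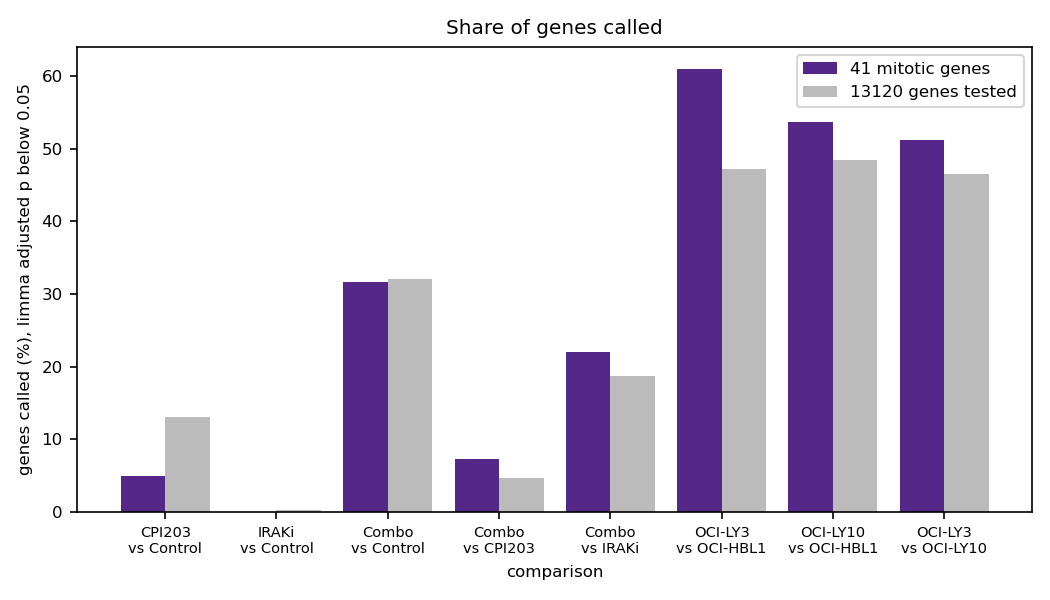
Percent of genes called (limma adjusted p below 0.05, either direction) among the 41 mitotic genes and among all 13120 genes tested, in 5 treatment comparisons and 3 comparisons of lines. The bars of the set and of all genes read 4.88% and 13.1% for CPI203, 31.7% and 32.1% for Combo and 61.0% and 47.2% for OCI-LY3 against OCI-HBL1. With trended robust variances the CPI203 shares were 17.1% and 17.2%, and with the filter at the 60th percentile those of OCI-LY3 against OCI-HBL1 were 63.4% and 62.0%.

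The lines differed more than the treatments. Over the 12 arrays the cell line held a median of 65.4% of a gene's variation in the set and treatment 16.0%, against 53.3% and 21.5% over all genes. Treatment held more than the line in 10 of the 41 genes (24.4%), against 32.7% of all genes. The comparisons of lines use 4 arrays each, which are 1 line under 4 treatments and not independent cultures, so their p-values describe these arrays.

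OCI-LY3 had more RNA of 20 genes of the set than OCI-HBL1 and less of 5 (61.0%, against 47.2% of all genes, with 25.1% higher and 22.2% lower), and with spike-in scaling 10 and 5 (36.6% against 37.4%). With the filter at the 60th percentile the shares were 63.4% and 62.0%. OCI-LY10 had more of 14 and less of 8 than OCI-HBL1 (53.7% against 48.5% of all genes, with 22.8% higher and 25.8% lower), and with spike-in scaling 5 and 13 (43.9% against 47.1%), so that most genes called there were then lower. OCI-LY3 against OCI-LY10 gave 15 higher and 6 lower (51.2% against 46.6% of all genes, with 26.0% higher and 20.6% lower), with 15 and 2 under spike-in scaling (41.5% against 37.9%).

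ANLN was the widest of these differences. In OCI-LY3 it lay at 9.31 to 9.90, in OCI-LY10 at 9.19 to 10.28 and in OCI-HBL1 at 7.16 to 7.47, with no overlap between OCI-HBL1 and the others. OCI-LY3 was 2.17 ± 0.15 above OCI-HBL1 (4.50-fold, adjusted p = 2.8e-06) and OCI-LY10 2.27 ± 0.15 (4.83-fold, adjusted p = 1.8e-06). OCI-HBL1 was also the lowest line for NUSAP1, at 10.92 ± 0.23, 9.42 ± 0.13 and 10.90 ± 0.19 (SD, 4 arrays), and for AURKB, at 9.64 ± 0.21, 8.40 ± 0.14 and 9.41 ± 0.10. In all 3 genes the ranges of OCI-LY3 and OCI-LY10 overlapped.

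AURKA separated the lines in another order, with OCI-LY3 at 10.95 ± 0.05, OCI-HBL1 at 9.34 ± 0.23 and OCI-LY10 at 8.77 ± 0.23. OCI-LY3 was 1.61 ± 0.12 above OCI-HBL1 (adjusted p = 4.4e-06) and 2.18 ± 0.12 above OCI-LY10 (4.53-fold, adjusted p = 7e-07). UBE2C followed it, with OCI-LY3 0.85 ± 0.13 above OCI-HBL1 and 1.23 ± 0.13 above OCI-LY10. BUB1 and NDC80 were lowest in OCI-LY10, which differed from OCI-HBL1 by -0.87 ± 0.11 and -0.54 ± 0.13.

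BUB3 was the checkpoint gene highest in OCI-HBL1. OCI-LY3 differed from that line by -0.69 ± 0.11 (adjusted p = 0.00049) and OCI-LY10 by -0.71 ± 0.11 (adjusted p = 0.00041). CENPE, KIF2C and ECT2 were also lower in OCI-LY3 than in OCI-HBL1, with differences of -0.49 ± 0.12, -0.38 ± 0.13 and -0.35 ± 0.13. KIF11, the motor that pushes spindle poles apart, differed by -0.76 ± 0.11 between OCI-LY3 and OCI-LY10 (adjusted p = 0.00026), and KIF2C by -0.71 ± 0.13, both lower in OCI-LY3.

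**Figure D5:**
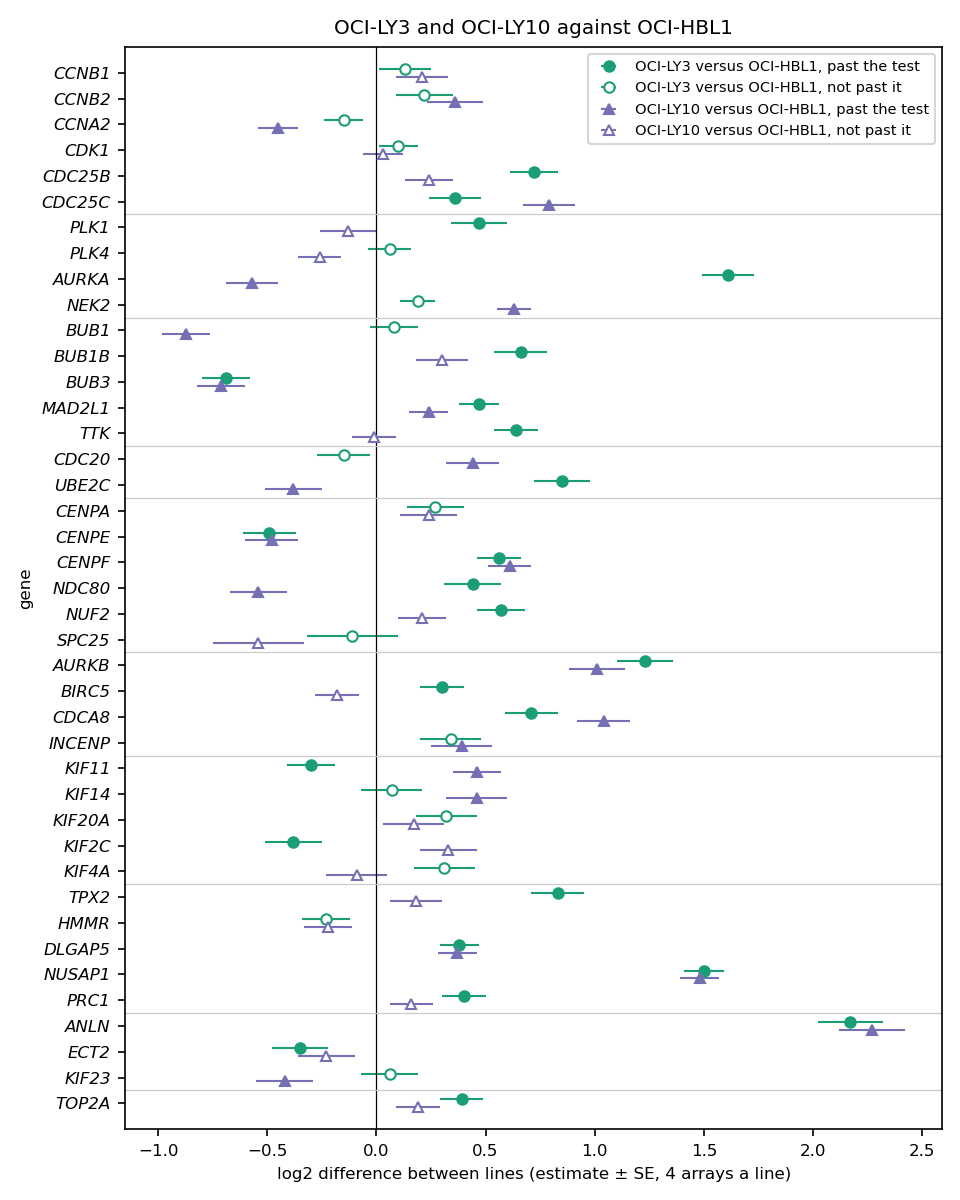
Log2 difference of OCI-LY3 (circles) and OCI-LY10 (triangles) from OCI-HBL1 for the 41 genes, with the moderated SE over 4 arrays a line, filled where the test was passed. ANLN (2.17 and 2.27) and NUSAP1 (1.50 and 1.48) lie far to the right for both lines, while AURKA lies at 1.61 for OCI-LY3 and -0.57 for OCI-LY10. Spike-in scaling moves the circles left by 0.16 and the triangles left by 0.30.

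The wider mitotic machinery, in 5 further lists of 121 tested genes, split with Combo as the set did. On the deposited scale 22 rose and 22 fell (36.4%, against 32.1% of all genes), the median change was 0.00, and with spike-in scaling none rose and 53 fell (43.8%, where 41.8% of all genes fell). Of 35 other kinetochore and centromere genes 4 rose and 10 fell. SPC24, whose product is the direct partner of SPC25, fell by 0.84 ± 0.15 (adjusted p = 0.0026), and TRIP13, the ATPase that remodels MAD2, by 0.90 ± 0.12 (adjusted p = 0.00063). CENPI fell by 1.05 ± 0.20 and ZW10, which brings dynein to kinetochores, by 0.67 ± 0.10. SPDL1, CENPC and KNL1, the scaffold that BUB1 and BUBR1 bind, rose by 0.57 ± 0.12, 0.60 ± 0.19 and 0.44 ± 0.14 before spike-in scaling, which takes 0.48 off each.

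Of 31 other spindle and cytokinesis genes 7 rose and 4 fell on the deposited scale (35.5%, against 32.1% of all genes). STIL and CEP192, of the centrosome, had changes of 0.85 ± 0.16 and 0.68 ± 0.13, CKAP2L of 0.81 ± 0.20 and KIF18A, a kinesin that damps chromosome movement, of 0.72 ± 0.21. PSRC1, HAUS1 and SASS6 fell by 1.09 ± 0.37, 0.87 ± 0.18 and 0.68 ± 0.13. With spike-in scaling none of the list rose and 10 fell (32.3%, where 41.8% of all genes fell).

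All genes tested were called at 32.1% (15.4% higher and 16.7% lower), against which 3 smaller lists are set here. Cohesin and condensin genes gave 5 higher and 4 lower of 21 (42.9%), among them NCAPG, a condensin subunit (0.60 ± 0.13), and STAG1, a cohesin subunit (-0.79 ± 0.14). The anaphase promoting complex gave 2 and 2 of 17 (23.5%), with CDC26 at -0.72 ± 0.13 and its inhibitor FBXO5 at 0.42 ± 0.12. Entry and exit regulators gave 4 and 2 of 20 (30.0%), with MASTL, the Greatwall kinase, at 0.74 ± 0.12 and CDCA2, which brings phosphatase to chromatin, at 1.00 ± 0.20. With spike-in scaling these 3 lists gave none higher, and 9, 6 and 9 lower (42.9%, 35.3% and 45.0%, where 41.8% of all genes fell).

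Among 24 transcription regulators of mitotic genes 3 rose and 8 fell with Combo (45.8%, against 32.1% of all genes, median -0.23). FOXM1, which activates many genes of the set in G2, read 7.83, 7.87 and 7.95 in Control and 6.83, 7.14 and 7.23 with Combo. It was 7.70, 6.98 and 7.25 with CPI203 and 7.95, 7.82 and 7.70 with IRAKi. Its Combo arrays were all below its Control arrays, and it fell by 0.82 ± 0.18 with Combo (adjusted p = 0.0076), while the change with CPI203 was -0.57 ± 0.18 (adjusted p = 0.067). E2F2 and LIN9, a MuvB subunit, fell by 1.53 ± 0.25 and 0.81 ± 0.14, whereas MYBL2, which encodes B-MYB, had -0.17 ± 0.11 (adjusted p = 0.29) and E2F1 -0.24 ± 0.14 (adjusted p = 0.23).

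NFYA, a subunit of the factor that binds CCAAT boxes, rose by 0.80 ± 0.11 (adjusted p = 0.00078), and CDKN1A, which encodes the CDK inhibitor p21, by 0.76 ± 0.21 (adjusted p = 0.023), although with spike-in scaling none of the 24 regulators rose and 16 fell (66.7%, where 41.8% of all genes fell). MYC, an activator of cell growth and proliferation, fell by 1.60 ± 0.21 (adjusted p = 0.00059). It read 11.90, 11.77 and 11.08 in Control and 9.73, 10.85 and 9.37 with Combo, with each Combo array below each Control array. Of 39 S-phase genes, listed for comparison, 2 rose and 16 fell (46.2%, against 32.1% of all genes, with 15.4% higher and 16.7% lower), and their median was -0.20. The falls included POLE2 (-1.50 ± 0.17), GINS2 (-1.20 ± 0.24) and MCM2 (-1.03 ± 0.14), of DNA polymerase epsilon, the GINS complex and the MCM helicase. With spike-in scaling none rose and 24 fell (61.5%, where 41.8% of all genes fell).

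With CPI203 the 5 mitotic lists together gave 4 higher and 7 lower of 121 (9.09%, against 13.1% of all genes). The regulators gave 1 and 3 of 24 (16.7%), with E2F2 at -1.04 ± 0.25 and LIN9 at -0.72 ± 0.14. The S-phase genes gave 0 and 7 of 39 (17.9%), with MCM2 at -0.90 ± 0.14. Over all genes 6.92% were higher and 6.21% lower. With spike-in scaling 7.44% of the mitotic lists, 20.8% of the regulators and 30.8% of the S-phase genes fell, where 11.7% of all genes fell. With IRAKi no gene of these lists passed, against 0.168% of all genes.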

How the data were processed

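Expression was read on 12 Affymetrix arrays (total RNA by Trizol, 150 ng to biotin-labelled cRNA, per the labels' protocols). The deposited log2 values were made by the authors with RMA in Affymetrix Expression Console 1.1, per the submitters' processing notes. RMA equalises array distributions, so a global shift in RNA is removed. The probe library and build are, here, not given in the sources used.

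Of 49386 probe sets, 45253 carried 1 gene, 1327 several, 2800 none, and 6 controls carrying 1 gene were left out. Of the identifiers, 99.82% matched reference gene names. A gene was represented by its highest probe set and tested above the 40th percentile (4.20) in at least 3 arrays, which left 13120 of 18239 genes. One limma fit (3.58.1, in R 4.3.3 with data.table, version 1.17.8) held treatment and cell line, with residual df of 6 and a prior df of 3.66. Tests were two-sided, adjusted by Benjamini-Hochberg over 13120 genes and called below 0.05. Cell line pairs the arrays, per the labels: deviations of one line correlated at 0.819 to 0.907 (18 pairs of arrays). Tested on data simulated for Combo against Control over 13120 genes, 10.4% of planted changes of 0.5, 68.7% of 1 and 93.9% of 2 were found, with 4 false calls. Changes were planted in only a small share of these genes, whereas 32.1% of all genes were called with Combo in the data. The adjusted threshold was therefore stricter in the simulation, and its rates cannot be read as those of the data. The number of arrays limits precision.

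Genes of the set given with all arrays are the 6 largest called in each direction of each treatment comparison and 10 fixed genes (CCNB1, CDK1, PLK1, AURKA, AURKB, BUB1, TOP2A, CDC20, BIRC5 and CENPF). For lines, genes named come from the 4 largest each way. From other lists, those named are FOXM1 (all arrays), MYC (Control and Combo arrays), and, by log2 change alone, MYBL2, E2F1, CDKN1A, HEXIM1 and up to 4 called genes each way. SPC24, CDCA2 and other examples belong to these. The genes and lists were chosen with earlier results of these data known. Alternatives were the mean of probe sets, no filter, a 60th percentile filter (5.70), cyclic loess, spike-in scaling, trended robust variances, no block, only the groups compared, no OCI-LY10 IRAKi array, and each replicate left out. Python 3.11.15, pandas 2.3.3 and matplotlib 3.10.9 made summaries and figures.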

Additional observations from a re-analysis of the deposited data

Results flagged for a closer look

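In 3 genes of the set, all treated arrays of 1 line lay more than 0.1 above the Control of that line while all treated arrays of another lay more than 0.1 below theirs. The difference between lines was not tested, and the 3 changes of a line share 1 Control array, so they are not independent. This rule was not run over all genes, so whether 3 of the 41 genes is an unusual count cannot be told. CCNB2, the second B-type cyclin, differed from Control by 0.29, 0.20 and 0.13 in OCI-LY3 with CPI203, IRAKi and Combo. In OCI-HBL1 its changes were -0.27, -0.34 and -0.50, and in OCI-LY10 -0.13, -0.21 and -0.70. KIF11, the motor that pushes spindle poles apart, had changes of 0.15, 0.17 and 0.29 in OCI-LY10 and of -0.29, -0.17 and -0.24 in OCI-HBL1. DLGAP5, a protein of spindle fibres near chromosomes, had changes of 0.10, 0.18 and 0.10 in OCI-LY3 and of -0.26, -0.23 and -0.13 in OCI-HBL1.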

How the results depend on the processing

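With no replicate block there was no term for the cell line. The genes of the set called then numbered 0 for CPI203 (2 with the term) and 1 for Combo (13). They numbered 0 for Combo against CPI203 (3) and 0 for Combo against IRAKi (9). Of all genes 0.0305%, 3.54%, 0.0152% and 0.0534% were called, in that order (13.1%, 32.1%, 4.66% and 18.7% with the term). A fit of only the groups compared gave 1, 3, 0 and 1 in the same order, where 9.1%, 16.5%, 1.51% and 7.45% of all genes were called. For CPI203 the mean of the probe sets gave 4, no filter 1, the 60th percentile filter 5 and trended robust variances 7. These are 9.76%, 2.44%, 12.2% and 17.1% of the set, against 15.5%, 8.35%, 22.7% and 17.2% of all genes. Trended robust variances gave 1 for IRAKi (0) and 5 for Combo against CPI203 (2.44% and 12.2%, against 1.68% and 7.27% of all genes). For Combo against CPI203 the mean of the probe sets gave 1 and spike-in scaling 1 (2.44% each, against 5.12% and 2.99% of all genes). Spike-in scaling gave 24 for Combo and 15 for OCI-LY3 against OCI-HBL1 (25). These are 58.5% and 36.6% of the set, against 45.7% and 37.4% of all genes. Without the OCI-LY10 IRAKi array, 2 were called for Combo against IRAKi (4.88%, against 11.3% of all genes).

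Leaving out each line in turn gave 0 to 0 for CPI203 and 5 to 11 for Combo. It gave 0 to 0 for Combo against CPI203 and 0 to 4 for Combo against IRAKi. The shares of all genes ran from 1.65% to 5.49%, 15.8% to 26.1%, 0.0% to 0.0229% and 4.01% to 13.0%, in that order. Leaving out each treatment gave 15 to 21 for OCI-LY3 against OCI-HBL1, with the lowest without the CPI203 arrays. It gave 16 to 21 for OCI-LY10 against OCI-HBL1 and 15 to 17 for OCI-LY3 against OCI-LY10. The shares of all genes ran from 38.1% to 43.3%, 39.5% to 44.9% and 36.5% to 43.5%, in that order. These fits have fewer samples.

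Spike-in scaling reversed the sign of the Combo change of CDK1 (-0.0610), BUB1 (-0.0109), NUF2 (-0.0428), CDCA8 (-0.0295) and NUSAP1 (-0.114), as its constant shift exceeds those rises. It also reversed the sign of the difference of MAD2L1 between OCI-LY10 and OCI-HBL1 (-0.0592). The mean of the probe sets reversed the sign of INCENP in that comparison (-0.117), and the cause was not tested. None of these values passed the test (limma adjusted p from 0.366 to 0.965), so they are not changes in the other direction. The 13 genes called with Combo were run under 156 combinations of gene and setting: 105 kept sign and call, 46 lost the call and 5 changed sign without a call. Cyclic loess gave 0 higher and 2 lower for CPI203, 1 and 1 for Combo against CPI203, 1 and 8 for Combo against IRAKi, 21 and 2 for OCI-LY3 against OCI-HBL1, 17 and 8 for OCI-LY10 against OCI-HBL1 and 11 and 7 for OCI-LY3 against OCI-LY10. The shares of all genes called with cyclic loess were 13.7%, 4.46%, 19.2%, 47.5%, 48.8% and 47.1%, in that order. Among 62 other probe sets of 28 genes, 51 had the sign of the chosen one with Combo, 55 with CPI203 and 40 with IRAKi.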
